A study of Mus musculus with 12 samples.

Results

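Long non-coding RNAs are transcripts that are processed like mRNAs or kept in the nucleus without being translated. 10 of them were followed here, chosen by symbol from the 20540 genes of the deposited table: Malat1, Neat1, Meg3, Rian, Mirg, Miat, Kcnq1ot1, Snhg11, H19 and Gas5. All 10 symbols were found, and all 10 passed the filter on low values in each comparison.

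The RNA came from oligodendrocyte progenitor cells (OPCs), the glial precursors of myelinating oligodendrocytes, prepared from the brain of C57BL/6 mice that were 6 to 7 days old and grown in a medium that the labels call SATO+PDGFRA. All cells had been transfected with a biotin-tagged microRNA mimic, which was either a control mimic or miR-27a, and no untransfected group was analysed here. For each mimic, RNA of the whole cells and RNA from the pulldown of the tagged mimic were sequenced in 3 libraries, which gave 12 libraries in 4 groups. Nothing in the labels says that the 3 libraries of a group came from separate cultures or animals, so the p-values rest on a spread that may be technical.

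Malat1 and Neat1 are nuclear RNAs transcribed from neighbouring genes; Malat1 gathers in nuclear speckles, and Neat1 is the scaffold of paraspeckles, nuclear bodies that form around it with a set of RNA-binding proteins. Meg3, Rian and Mirg lie one after another in the Dlk1-Dio3 imprinted region, where they are expressed from the maternal chromosome and carry snoRNAs and microRNAs in their introns or exons. H19 and Kcnq1ot1 are imprinted RNAs of another region, H19 being maternally expressed next to Igf2 and Kcnq1ot1 being a paternally expressed antisense RNA that silences its neighbours. Miat, also called Gomafu, is a nuclear RNA of neural cells, and Gas5 and Snhg11 are host genes of snoRNAs, the small RNAs that guide ribosomal RNA modification.

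Mature miR-27a-3p was taken as the sequence that the mimic represents, and RefSeq places it on the mouse genome (GRCm38.p6) at chr8:84208727-84208747 on the plus strand. It is shown because its seed, bases 2 to 8 in capitals, defines the matches searched for in the long non-coding RNAs. The mimic's exact strand and chemistry, not given in the sources used here, may differ.
miR-27a-3p: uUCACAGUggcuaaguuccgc

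Matches to this seed were looked for on the sense strand of the longest annotated transcript of each gene (GENCODE M21, GRCm38). The 8mer is ACTGTGAA, and the shorter forms, counted only where no 8mer covers them, are ACTGTGA and CTGTGAA. Of the 10 transcripts, 4 held any match, with 15 in Kcnq1ot1, 8 in Neat1, 8 in Meg3 and 2 in Rian, while Malat1, Mirg, Miat, Snhg11, H19 and Gas5 held none. An 8mer was present 4 times in Kcnq1ot1 and once each in Meg3 and Neat1. Over the 10 transcripts there were 0.197 matches per kb, against 0.218 per kb over 10146 other annotated long non-coding genes, of which 4.24% held an 8mer and 23.7% any match. The median length of those genes' transcripts was 977 bases, while the 3 transcripts with an 8mer had 14548 to 93092 bases and were the longest of the 10. Per kb, 8mers were at 0.0359 over the 10 and 0.0325 over the others. The windows around the 8mers of Neat1 and Meg3 and around the 8mer nearest to the 5′ end of Kcnq1ot1 are printed 5′ to 3′ with the match in capitals, because these are the 3 transcripts with the full match. All 3 windows lie in exons of RNAs that have no coding sequence in that annotation: Neat1 at chr19:5828902-5828931 on the minus strand, Meg3 at chr12:109571107-109571136 on the plus strand and Kcnq1ot1 at chr7:143282500-143282529 on the minus strand.
Neat1: tgctggcatagACTGTGAAgacctacctga
Meg3: aggtttaatagACTGTGAAttggctagaag
Kcnq1ot1: tagaagaggcaACTGTGAAtgatggccaga

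The Neat1 match starts at base 16559 of a transcript of 20771 bases, so it falls in the long isoform. The Meg3 match starts at base 13940 of 14548, near the 3′ end. Kcnq1ot1 is an unspliced RNA of 93092 bases in the annotation, and its 8mers start at bases 14032, 14349, 35294 and 64504. A match of letters is a description of the sequence and not a measured binding site.

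**Figure D1:**
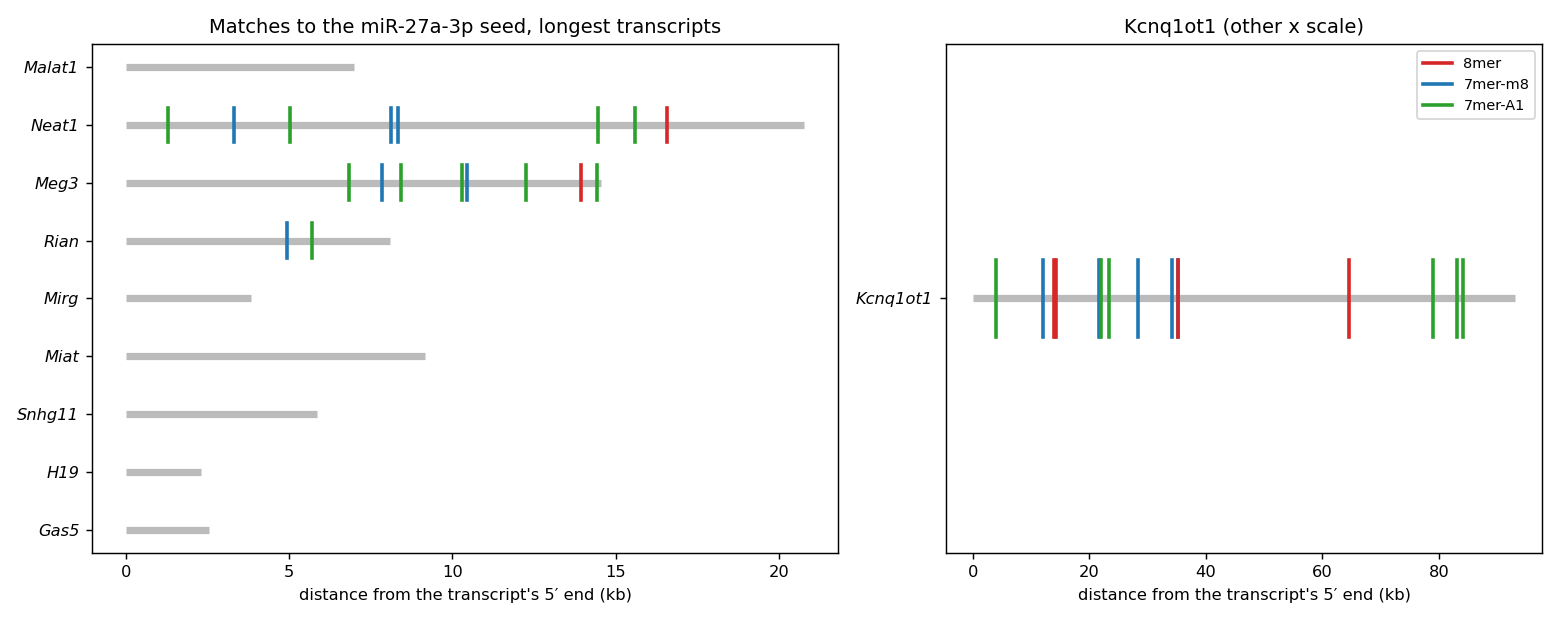
Position of each match to the miR-27a-3p seed along the longest annotated transcript, as distance from its 5′ end in kb; grey bars are transcripts and coloured ticks are matches, with the 8mer in red. Kcnq1ot1 is drawn on its own scale, since its transcript of 93092 bases is the longest of the 10. The 33 matches fall in Neat1, Meg3, Rian and Kcnq1ot1.

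Assigned reads per library ranged from 15548418 to 24972188. Pulldown and whole-cell libraries parted on the first principal component of all tested genes (65.3% of the variance) and the mimics on the second (14.4%). The third (5.4%) set pulldown miR-27a replicate 2 apart from the rest. Markers of OPCs summed to 1616 to 1738 CPM (reads scaled to the size of the library) in whole-cell libraries and 3177 to 3998 CPM in pulldown libraries. Astrocyte markers summed to 6946 to 8216 CPM in whole-cell libraries and 3848 to 5479 CPM in pulldown libraries. Neuronal markers summed to 266 to 397 CPM, microglial markers to 15.4 to 25.3 CPM and endothelial markers to 6.5 to 24.1 CPM over the 12 libraries, and no marker listed was at 0 in all libraries of a group. In such bulk samples, fewer cells of a type and less RNA per cell cannot be told apart.

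The 10 RNAs covered a wide range of levels, and "abundant" fits only some of them. By mean CPM in whole-cell RNA under control mimic, Malat1 was in place 3 and H19 in place 58 of the 20540 genes. Gas5, Rian, Miat, Neat1 and Kcnq1ot1 followed in places 720, 1955, 2359, 3100 and 3631. Meg3 was in place 6961, Snhg11 in place 11059 and Mirg in place 12383. Malat1 alone had a mean CPM in that group equal to 1.23% of the library size as scaled by the authors' normalisation. The values of Mirg rest on 27 to 101 reads per library and those of Snhg11 on 42 to 124, against at least 90520 reads for Malat1, so counting error weighs most on those low RNAs.

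Divided by the length of all annotated exons, the whole-cell level under control mimic was 1768 ± 133 CPM per kb for Malat1 (SD, n = 3), 451 ± 7.7 for H19, 68.7 ± 1.63 for Gas5 and 11.1 ± 0.55 for Miat. Rian had 6.66 ± 0.44 CPM per kb (SD, n = 3), Neat1 3.73 ± 0.15, Meg3 1.30 ± 0.03, Kcnq1ot1 0.69 ± 0.06, Snhg11 0.50 ± 0.10 and Mirg 0.25 ± 0.03. No neighbours in this order overlapped between their replicates. In pulldown RNA the order changed at the top, with H19 at 1273 ± 57.8 CPM per kb (SD, n = 3) above Malat1 at 852 ± 62.4 under control mimic. At the bottom of that order, Kcnq1ot1, Mirg and Snhg11 overlapped with their neighbours. The lengths come from GENCODE M21, and the gene models that the authors counted may differ from it.

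**Figure D2:**
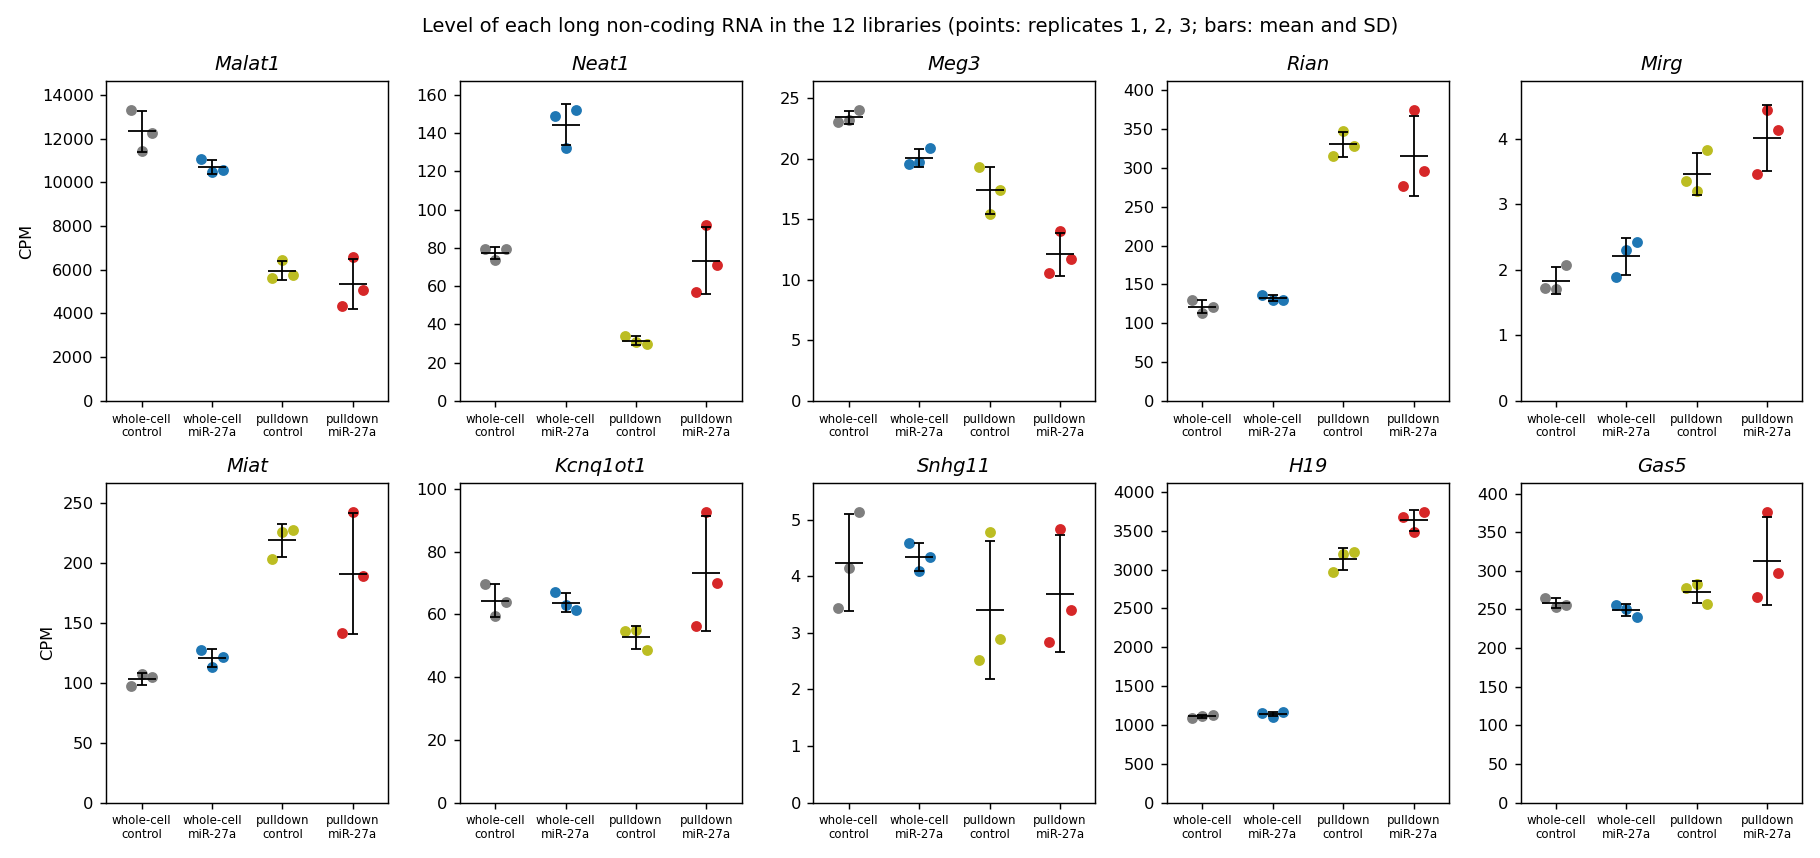
CPM of each RNA in the 12 libraries, 1 panel per RNA with its own axis from 0; points are replicates 1, 2 and 3 from left to right and black bars the mean and SD of a group. Neat1 is higher under miR-27a mimic in both kinds of RNA, H19 and Rian are higher in pulldown RNA, and replicate 2 of the pulldown miR-27a group is the highest of its group in every panel but that of H19.

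The first comparison asked how the RNA of the cells differed between mimics. Under miR-27a mimic 3 of the 10 RNAs were higher in whole-cell RNA (Neat1, Miat and Rian) and 2 were lower (Malat1 and Meg3), at an adjusted p under 0.05 in limma over 13393 genes. Of all genes tested, 13.0% were higher and 11.9% lower by the same rule. The median change of the 10 was 0.04 on the log2(CPM + 1) scale, against 0.01 over all genes. Neat1 stood out in size, and the other 4 changes were all under 0.25 on that scale.

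Neat1, the paraspeckle scaffold, had 79.3, 73.8 and 79.4 CPM in whole-cell replicates 1 to 3 under control mimic and 149, 132 and 152 CPM under miR-27a. The lowest miR-27a library thus lay well above the highest control library. The mean rose from 77.5 ± 3.22 to 144.5 ± 10.7 CPM (SD, n = 3), a ratio of 1.86 and a log2 change of 0.89 ± 0.05 (SE; adjusted p = 6.2e-12). The gene-level value cannot tell the short isoform from the long one, because both share the 5′ part.

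Malat1, the speckle RNA whose gene lies 22.0 kb from Neat1 on the same strand of chromosome 19, had 13309, 11449 and 12281 CPM under control mimic and 11077, 10471 and 10583 CPM under miR-27a. The groups did not overlap, but the gap between them was smaller than the range within the control group. The log2 change was -0.20 ± 0.04 (SE; adjusted p = 0.00114). With no filter on low values the adjusted p was 0.0744, and with the spread pooled over all 12 libraries it was 0.314.

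Miat had 97.3, 107 and 105 CPM under control mimic and 127, 113 and 122 CPM under miR-27a. Its groups did not overlap, and the log2 change was 0.23 ± 0.05 (SE; adjusted p = 0.00104). Meg3 had 23.1, 23.2 and 24.0 CPM under control mimic and 19.6, 19.8 and 20.9 CPM under miR-27a. These groups did not overlap either, with a log2 change of -0.21 ± 0.07 (SE; adjusted p = 0.0280). Meg3 no longer passed when whole-cell control replicate 3 (adjusted p = 0.0969), whole-cell miR-27a replicate 1 (adjusted p = 0.104) or whole-cell miR-27a replicate 2 (adjusted p = 0.0727) was left out.

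Rian, the snoRNA-rich neighbour of Meg3, had 129, 113 and 122 CPM under control mimic and 136, 131 and 131 CPM under miR-27a. The lowest miR-27a library was above the highest control library by little, and the log2 change was 0.13 ± 0.05 (SE; adjusted p = 0.0415). This call held without whole-cell control replicate 1 and was lost when any other of the 6 libraries was left out, with adjusted p from 0.0659 (without whole-cell miR-27a replicate 2) to 0.217 (without whole-cell control replicate 2). It was also lost with median-of-ratios scaling (adjusted p = 0.0959) and with no filter on low values (adjusted p = 0.102). With the spread pooled over all 12 libraries, Neat1 was the 1 RNA of the 10 that passed, with Miat at an adjusted p of 0.290, Meg3 at 0.224 and Rian at 0.415. Calls over all genes fell as well, from 1736 higher and 1599 lower of 13393 to 760 and 655 of 13875.

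The other 5 RNAs did not pass the test in whole-cell RNA. Their log2 changes were 0.18 ± 0.14 for Mirg (SE; adjusted p = 0.401), 0.04 ± 0.13 for Snhg11 (adjusted p = 0.872), 0.04 ± 0.03 for H19 (adjusted p = 0.427), -0.01 ± 0.06 for Kcnq1ot1 (adjusted p = 0.900) and -0.05 ± 0.04 for Gas5 (adjusted p = 0.323). H19 was even between libraries, with 1088 to 1125 CPM under control mimic and 1107 to 1161 CPM under miR-27a, and Gas5 had 253 to 265 and 241 to 256 CPM. All 5 overlapped between the mimics.

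Astrocyte markers moved in the same libraries. In whole-cell RNA 6 of the 8 listed were lower under miR-27a mimic and none was higher. Over all genes 11.9% were lower and 13.0% higher, a share that applies to each marker list below. The astrocyte sum was 8193 to 8216 CPM under control mimic and 6946 to 7004 CPM under miR-27a. Neuronal markers summed to 320 to 328 CPM under control mimic and 358 to 397 CPM under miR-27a, but of 11 tested only 2 were higher (Tubb3 and Dcx) and 1 lower (Snap25), and Tubb3 alone went from 104 ± 10.3 to 159 ± 11.5 CPM (SD, n = 3). Fibroblast and mural markers summed to 191 to 210 and 156 to 165 CPM, with 3 of 7 lower and 1 higher. Among them the smooth-muscle genes Acta2 and Tagln had log2 changes of -1.51 and -1.32. Of 7 OPC markers 4 were higher and 1, Pdgfra, was lower. The part of these markers in the changes of Neat1, Miat, Rian, Malat1 and Meg3 was not tested.

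The second comparison asked which RNAs differed between the mimics in the captured RNA. In pulldown RNA Neat1 and Kcnq1ot1 were higher under miR-27a and Meg3 was lower, so 2 of 10 rose and 1 fell. Over the 13586 genes tested, 6.05% were higher and 7.06% lower, which is 822 and 959 genes; with the replicate block, which pairs same-numbered libraries, 1274 were higher and 1469 lower, and the same 3 RNAs passed. In this fit the 3 RNAs called are the 3 whose transcript holds an 8mer, Neat1 and Kcnq1ot1 with a rise and Meg3 with a fall. With the spread pooled over all 12 libraries H19, which holds no match, passed too. Without pulldown miR-27a replicate 2, Miat, Malat1, Rian and H19, none with an 8mer, also passed. Neat1 and Meg3 changed in the same directions in whole-cell RNA (0.89 and -0.21). None of the 10 passed the test of the difference between mimics. Whether the match and the change are related was not tested.

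Neat1 had 34.0, 30.8 and 29.6 CPM in pulldown replicates 1 to 3 under control mimic and 56.9, 92.1 and 71.0 CPM under miR-27a. Every miR-27a library was above every control library, although the miR-27a libraries spread widely. The mean rose from 31.5 ± 2.3 to 73.3 ± 17.7 CPM (SD, n = 3), a ratio of 2.33 and a log2 change of 1.17 ± 0.13 (SE; adjusted p = 3.78e-05). Without pulldown miR-27a replicate 2, the highest of the 3, the log2 change was 0.99 ± 0.10 (SE; adjusted p = 6.28e-12).

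Meg3 had 19.3, 15.4 and 17.4 CPM under control mimic and 10.5, 14.1 and 11.7 CPM under miR-27a. The groups did not overlap, and the log2 change was -0.49 ± 0.13 (SE; adjusted p = 0.0187). The call was lost without pulldown control replicate 1 (adjusted p = 0.108), pulldown control replicate 3 (adjusted p = 0.0702) or pulldown miR-27a replicate 3 (adjusted p = 0.0777), and with no filter on low values (adjusted p = 0.0705).

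Kcnq1ot1, the silencing antisense RNA of the Kcnq1 region, had 54.5, 54.9 and 48.5 CPM under control mimic and 56.4, 92.7 and 70.1 CPM under miR-27a. Its groups were separated by a narrow gap, since miR-27a replicate 1 was only just above the highest control library. The log2 change was 0.44 ± 0.13 (SE; adjusted p = 0.0427). It no longer passed, with log2 changes of 0.38 to 0.47, without pulldown control replicate 1 (adjusted p = 0.110), 2 (adjusted p = 0.0877) or 3 (adjusted p = 0.182), without pulldown miR-27a replicate 3 (adjusted p = 0.115) and with no filter on low values (adjusted p = 0.142). Without pulldown miR-27a replicate 2 the log2 change was 0.25 ± 0.09 (SE; adjusted p = 0.0389). Kcnq1ot1 overlaps Kcnq1 on the other strand. The library kit marks strand, but whether the counting used it is not known from the labels; Kcnq1 itself had at most 0.3 CPM in any library.

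H19 had 2967, 3195 and 3229 CPM under control mimic and 3682, 3485 and 3743 CPM under miR-27a. Its groups did not overlap, with a log2 change of 0.22 ± 0.10 (SE) that did not pass (adjusted p = 0.170). It passed with the spread pooled over all 12 libraries (adjusted p = 0.0153). Of the other 6, Miat had a log2 change of -0.23 ± 0.14 (SE; adjusted p = 0.325), Malat1 -0.18 ± 0.14 (adjusted p = 0.455), Rian -0.08 ± 0.10 (adjusted p = 0.691), Gas5 0.18 ± 0.11 (adjusted p = 0.302), Mirg 0.17 ± 0.15 (adjusted p = 0.540) and Snhg11 0.10 ± 0.20 (adjusted p = 0.796). All 6 overlapped between the mimics. Gas5 passed without pulldown miR-27a replicate 1 (log2 change 0.29, adjusted p = 0.0349).

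One library stood apart in this comparison. Pulldown miR-27a replicate 2 was the highest of its group for 9 of the 10 RNAs, all but H19, while it was the highest for 37.8% of all 13875 genes. Replicate 1 was the highest for 0 of the 10 and for 37.9% of all genes. The median deviation of the 10 RNAs from their group mean was 0.30 on the log2(CPM + 1) scale in replicate 2 and -0.24 in replicate 1. Miat shows this most plainly, with 142, 243 and 189 CPM in pulldown miR-27a replicates 1 to 3 against 203, 226 and 228 CPM under control mimic. Without replicate 2, 7 of the 10 passed, and 20.0% of all genes tested in that fit did. Those added to Neat1, Meg3 and Kcnq1ot1 were Miat with a log2 change of -0.41 ± 0.08 (SE; adjusted p = 0.000103), Malat1 with -0.34 ± 0.10 (adjusted p = 0.0110), Rian with -0.20 ± 0.07 (adjusted p = 0.0357) and H19 with 0.25 ± 0.09 (adjusted p = 0.0421). What sets this library apart was not tested.

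**Figure D3:**
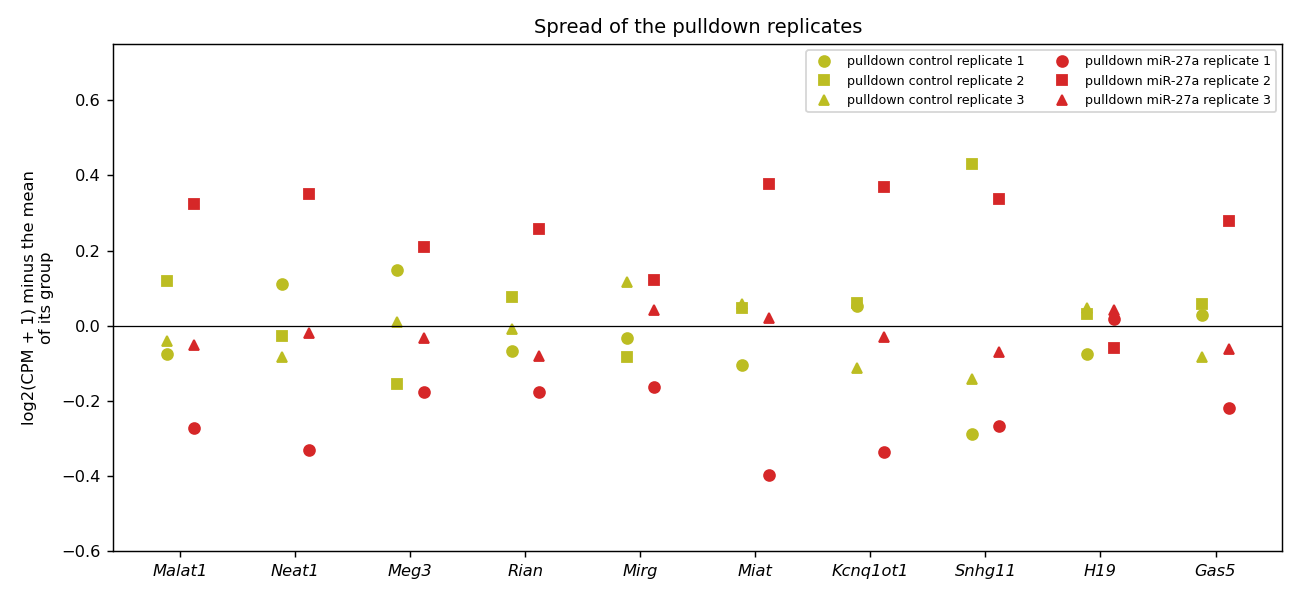
Deviation of each pulldown library from the mean of its group, in log2(CPM + 1), for the 10 RNAs; olive symbols are the 3 control libraries and red symbols the 3 miR-27a libraries, with circles, squares and triangles for replicates 1, 2 and 3. The red squares (miR-27a replicate 2) lie above 0 for all but H19, and the red circles (replicate 1) lie below 0 for the same 9 RNAs.

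Astrocyte markers also differed between the pulldown groups, with 6 of 8 lower and 0 higher under miR-27a mimic. Over all genes 7.06% were lower and 6.05% higher. The astrocyte sum was 5341 to 5479 CPM under control mimic and 3848 to 4273 CPM under miR-27a. OPC markers summed to 3177 to 3231 CPM under control mimic and 3609 to 3998 CPM under miR-27a. Of 9 fibroblast and mural markers 0 were higher under miR-27a and 3 were lower, with log2 changes of -1.65 for Acta2, -1.27 for Tagln and -0.36 for Pdgfrb. The part of these markers in the changes of Neat1, Kcnq1ot1 and Meg3 was not tested.

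The third comparison set captured RNA against the whole-cell RNA under the same mimic. Here the 10 RNAs split into a group that was higher in pulldown RNA, led by H19 and Rian, and a group that was lower, led by Neat1 and Malat1. Under control mimic 4 were higher (H19, Rian, Miat and Mirg) and 4 lower (Neat1, Malat1, Meg3 and Kcnq1ot1), while 31.7% of the 13875 genes tested were higher and 30.3% lower. Under miR-27a mimic 5 were higher (H19, Rian, Mirg, Miat and Gas5) and 3 lower (Malat1, Neat1 and Meg3), against 29.3% of genes higher and 30.9% lower. With CPM taken from library totals, 60.2% of the genes called under miR-27a mimic were higher, against 48.7% in the fit reported, and the same 8 RNAs kept their direction. The median absolute log2 change of the 10 was 0.85 under control mimic and 0.67 under miR-27a, against 0.33 and 0.32 over all genes.

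H19 rose from 1088, 1116 and 1125 CPM in whole-cell RNA under control mimic to the 2967 to 3229 CPM given above, a ratio of means of 2.82. The log2 change was 1.49 ± 0.06 under control mimic (SE; adjusted p = 1.8e-12) and 1.67 ± 0.06 under miR-27a (adjusted p = 4.37e-13). In each case the lowest pulldown library had more than any whole-cell library. Igf2, the imprinted growth factor gene beside H19, was also higher in pulldown RNA, with 6.38 ± 0.3 against 15.6 ± 1.06 CPM under control mimic (SD, n = 3; log2 change 1.17 ± 0.09, SE, adjusted p = 5.42e-09). Of 9 markers of fibroblasts and mural cells, 6 were higher in pulldown RNA under control mimic, among them Col3a1, Dcn, Lum and Col1a2. The 3 lower were Acta2 (means of 46.0 and 27.2 CPM), Tagln (47.1 and 17.9 CPM) and Rgs5 (5.03 and 2.39 CPM). Over all genes 31.7% were higher and 30.3% lower. The sum of the 9 went from 191 to 210 CPM in whole-cell RNA to 373 to 402 CPM in the pulldown. Under miR-27a mimic the sum went from 156 to 165 CPM to 385 to 401 CPM. Of 7 OPC markers 6 were higher and 0 lower in the pulldown under control mimic. The OPC sum went from 1616 to 1652 CPM in whole-cell RNA to 3177 to 3231 CPM in the pulldown. The part of these markers in the level of H19 was not tested.

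Rian had 315, 348 and 328 CPM in the pulldown under control mimic and 277, 375 and 296 CPM under miR-27a. All 6 values were more than the 113 to 136 CPM of the whole-cell libraries. The log2 change was 1.44 ± 0.09 under control mimic (SE; adjusted p = 1.81e-10) and 1.24 ± 0.09 under miR-27a (adjusted p = 1.1e-09). Miat was higher in the pulldown by 1.08 ± 0.12 (SE; adjusted p = 4.98e-07) and 0.63 ± 0.12 (adjusted p = 0.000226). Mirg had 1.72 to 2.07 CPM in whole-cell RNA and 3.20 to 3.83 CPM in the pulldown under control mimic, a log2 change of 0.65 ± 0.13 (SE; adjusted p = 0.000358), and one of 0.65 ± 0.13 (adjusted p = 0.000434) under miR-27a.

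The 3 RNAs of the Dlk1-Dio3 region did not move together in the capture. On GRCm38 they lie on the plus strand of chromosome 12, Meg3 at chr12:109541001-109571726, Rian at chr12:109603940-109661716 and Mirg at chr12:109729764-109749460, so that 208 kb hold all 3. Rian and Mirg were higher in pulldown RNA. Meg3 was lower, with 15.4 to 19.3 CPM against 23.1 to 24.0 CPM under control mimic, a log2 change of -0.42 ± 0.10 (SE; adjusted p = 0.00176), and with -0.69 ± 0.10 (adjusted p = 1.21e-05) under miR-27a. Between them and within them lie microRNA genes, 14 annotated within Mirg, of which 12 have a row of their own in the table, and 13 snoRNA genes within Rian, of which 1 has a row. Reads of such guest genes could be counted apart from their host. The protein-coding genes of the region were near the limit of detection, Dlk1 with at most 0.83 CPM and Rtl1 with at most 0.085 CPM in any library, so no comparison with them was made.

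**Figure D4:**
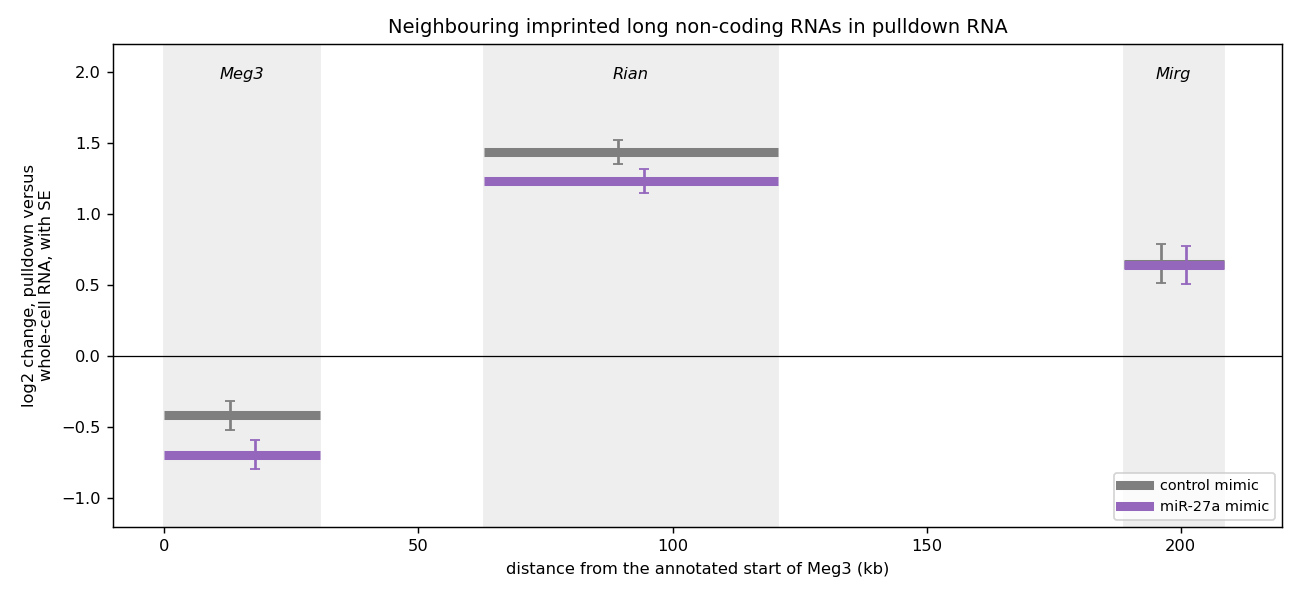
Log2 change between pulldown and whole-cell RNA, with SE, for Meg3, Rian and Mirg at their positions in kb from the annotated start of Meg3; grey bars are control mimic and purple bars miR-27a mimic, each as long as the gene. Meg3 lies below 0 under both mimics, while Rian and Mirg lie above 0.

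The nuclear-body RNAs were lower in pulldown RNA. Malat1 had 5637, 6450 and 5773 CPM in the pulldown under control mimic, all below the whole-cell libraries, with a ratio of means of 0.482 and a log2 change of -1.05 ± 0.11 (SE; adjusted p = 3.09e-07). Under miR-27a it had 4353, 6579 and 5077 CPM and a log2 change of -1.03 ± 0.11 (adjusted p = 4.47e-07). For Neat1 the log2 changes were -1.27 ± 0.12 (SE; adjusted p = 3.27e-08) and -0.99 ± 0.12 (adjusted p = 7.4e-07). Both were thus lower in the capture under each mimic, whereas in whole-cell RNA under miR-27a Neat1 rose and Malat1 fell.

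Kcnq1ot1 was lower in the pulldown under control mimic by a small amount, with a log2 change of -0.28 ± 0.12 (SE; adjusted p = 0.0450). It no longer passed without whole-cell control replicate 1 (adjusted p = 0.161) or 3 (adjusted p = 0.0874), without pulldown control replicate 1 (adjusted p = 0.0659), 2 (adjusted p = 0.0590) or 3 (adjusted p = 0.163), with CPM from library totals (adjusted p = 0.167), with no filter on low values (adjusted p = 0.114) and with voom (adjusted p = 0.0566). Under miR-27a its log2 change was 0.17 ± 0.12 (SE; adjusted p = 0.237). It passed there without pulldown miR-27a replicate 1 (0.33, adjusted p = 0.00518) and was -0.02 (adjusted p = 0.862) without replicate 2.

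Of the snoRNA hosts Gas5 and Snhg11, Gas5 passed under miR-27a mimic only and Snhg11 under neither mimic. Gas5 had 278, 284 and 257 CPM in the pulldown under control mimic and 253 to 265 CPM in whole-cell RNA, a log2 change of 0.08 ± 0.09 (SE) that did not pass (adjusted p = 0.448). Under miR-27a it had 266, 376 and 297 CPM against 241 to 256 CPM and passed, with a log2 change of 0.31 ± 0.09 (SE; adjusted p = 0.00472), which was 0.17 ± 0.06 (adjusted p = 0.00921) without pulldown miR-27a replicate 2. Snhg11, which GENCODE M21 annotates as protein-coding, had 2.52, 4.79 and 2.89 CPM in the pulldown under control mimic, overlapping with 3.44 to 5.14 CPM in whole-cell RNA. Its log2 changes of -0.27 ± 0.18 (SE; adjusted p = 0.202) and -0.21 ± 0.18 (adjusted p = 0.343) did not pass, and without pulldown control replicate 2 the first was -0.49 (adjusted p = 0.0245).

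**Figure D5:**
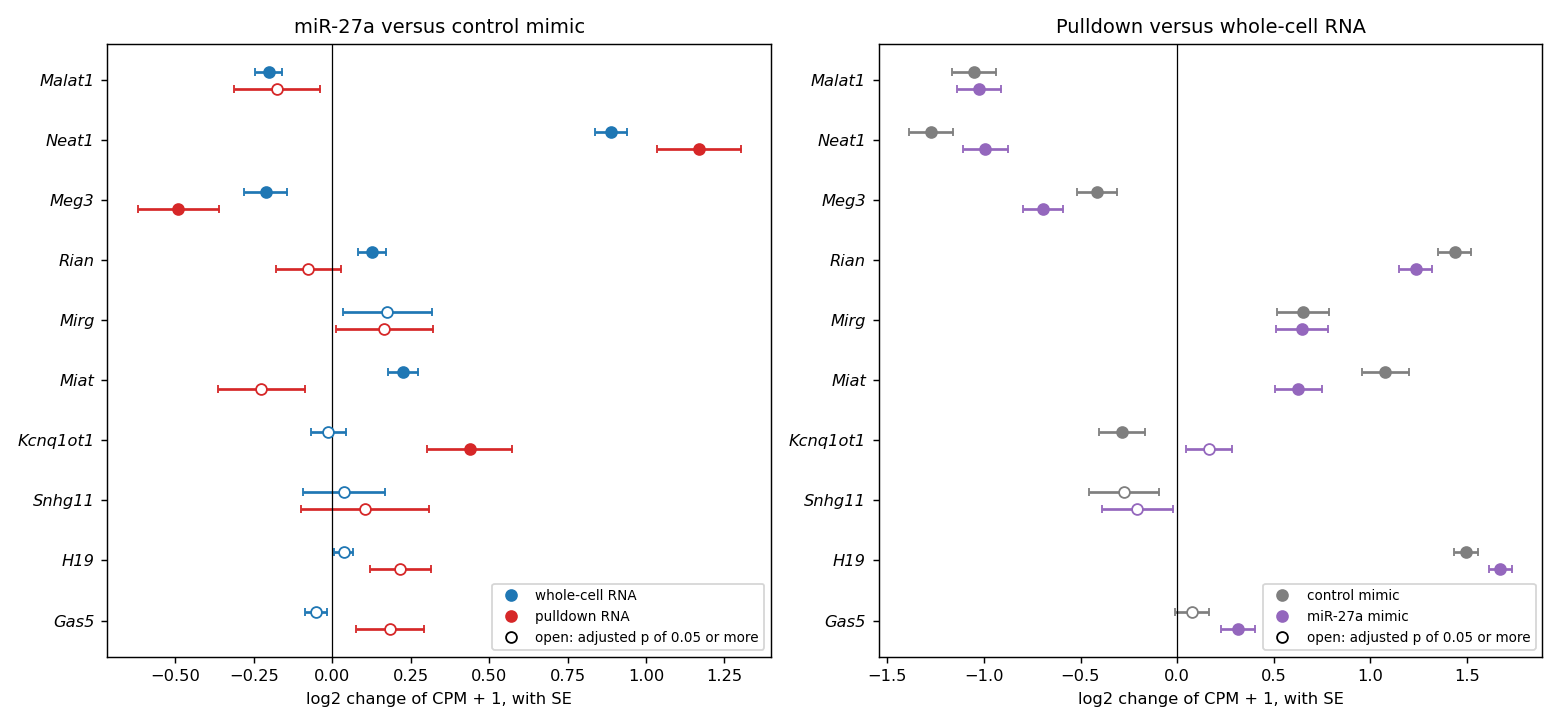
Log2 change of CPM + 1 with its SE for the 10 RNAs; the left panel sets the miR-27a mimic against the control in whole-cell (blue) and pulldown (red) RNA, and the right panel sets pulldown against whole-cell RNA under control (grey) and miR-27a (purple) mimic. Filled points passed an adjusted p of 0.05. Neat1 is the farthest to the right in the left panel, at 0.89 and 1.17, and H19, at 1.49 and 1.67, in the right panel.

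The last comparison tested whether the difference between pulldown and whole-cell RNA itself differed between the mimics, which is the test of capture with miR-27a beyond capture with the control. None of the 10 passed (0 of 10, limma), while 1.07% of 13875 genes did. At an unadjusted p under 0.05 there were 2, Kcnq1ot1 and Miat. The share of all genes under that unadjusted threshold is not given here, so this count has nothing to be set against. Kcnq1ot1 had a difference of 0.45 ± 0.17 in log2 units (SE; adjusted p = 0.231) and Miat of -0.45 ± 0.17 (adjusted p = 0.246). Voom on the recovered reads also called 0 of 10, and array weights, which weigh libraries by their spread, called 6 (Neat1, Meg3, Rian, Miat, Kcnq1ot1 and H19) and 12.5% of all genes, but their estimation stopped before it converged. Neat1 had a difference of 0.28 ± 0.16 (SE; adjusted p = 0.493) and Meg3 of -0.28 ± 0.14 (adjusted p = 0.435). H19 had 0.18 ± 0.09 (adjusted p = 0.390), Gas5 0.24 ± 0.12 (adjusted p = 0.446), Rian -0.20 ± 0.12 (adjusted p = 0.504), Snhg11 0.07 ± 0.26 (adjusted p = 0.947), Malat1 0.03 ± 0.16 (adjusted p = 0.968) and Mirg -0.01 ± 0.19 (adjusted p = 0.992). Without pulldown miR-27a replicate 2, Miat (-0.64 ± 0.11, SE, adjusted p = 0.000688) and Rian (-0.33 ± 0.08, adjusted p = 0.0157) passed. Without pulldown miR-27a replicate 1, Kcnq1ot1 passed (0.62, adjusted p = 0.0141).

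Other genes of the same kinds were taken as lists. Of 20 other snoRNA hosts, 11 were in the table and 10 were tested. In pulldown against whole-cell RNA 8 of these were higher and 0 lower under control mimic, against 31.7% and 30.3% of all genes. Under miR-27a 7 were higher and 0 lower, against 29.3% and 30.9%. Their medians were 0.44 and 0.48 on the log2(CPM + 1) scale, against 0.02 and -0.01 over all genes. Snhg7 had 13.7 ± 1.01 CPM in whole-cell RNA and 24.0 ± 1.99 CPM in the pulldown under control mimic (SD, n = 3; log2 change 0.77 ± 0.09, SE, adjusted p = 1.39e-06), and 2410006H16Rik, Snhg12 and Snhg4 were higher by 0.55, 0.54 and 0.57. Gas5 and Snhg11 were not called under control mimic, and no test of their difference from these genes was made. Between the mimics, Snhg5 was higher under miR-27a in whole-cell RNA (0.19 ± 0.06, SE, adjusted p = 0.0158) and in pulldown RNA (0.41 ± 0.10, adjusted p = 0.0145), and Snhg6 was lower in whole-cell RNA (-0.22 ± 0.06, adjusted p = 0.00589).

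The list of other nuclear or regulatory long non-coding RNAs had 20 symbols, with Norad also under its other symbol 2900097C17Rik. Of the 20 symbols, 12 were in the table and 11 were tested. Under control mimic 5 were higher in the pulldown and 1 was lower, against 31.7% and 30.3% of all genes. Under miR-27a 7 were higher and 1 lower, against 29.3% and 30.9%. Among those higher was 2900097C17Rik, known as Norad, a long RNA that binds Pumilio proteins, with 493 ± 26.3 CPM in whole-cell RNA and 1832 ± 206 CPM in the pulldown (SD, n = 3; log2 change 1.89 ± 0.09, SE, adjusted p = 1.81e-11). Xist, the nuclear RNA of X inactivation, was higher by 1.58 ± 0.08 (SE; adjusted p = 4.26e-11), and the imprinted Peg13 by 1.32 ± 0.12 (adjusted p = 4.8e-08). Sox2ot, which overlaps Sox2, was lower by 0.83 on the same scale, with 256 ± 1.11 and 144 ± 9.58 CPM (SD, n = 3; adjusted p = 2.31e-06). Nuclear RNAs were thus found among those higher (Xist and Miat) and those lower (Malat1 and Neat1) in the pulldown. Between the mimics 1 of the 11 was called in whole-cell RNA, Xist, which was lower under miR-27a (-0.17 ± 0.04, SE, adjusted p = 0.00642), and 0 in pulldown RNA. Over all genes 13.0% were higher and 11.9% lower in whole-cell RNA, and 6.05% and 7.06% in pulldown RNA.

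Of 26 imprinted protein-coding genes listed, which include neighbours of Meg3, H19 and Kcnq1ot1 and genes of other imprinted regions, 16 were tested in whole-cell RNA, where 6 were higher and 1 lower under miR-27a mimic, against 13.0% and 11.9% of all genes. In pulldown RNA 18 were tested, of which 5 were higher and 1 lower, against 6.05% and 7.06%. Cdkn1c, a cell-cycle inhibitor gene in the domain that Kcnq1ot1 silences, had 102 ± 4.44 CPM under control mimic and 174 ± 3.4 CPM under miR-27a in whole-cell RNA (SD, n = 3; log2 change 0.78 ± 0.04, SE, adjusted p = 2.41e-12), while Kcnq1ot1 had 64.4 ± 5.14 and 63.7 ± 2.93 CPM. Grb10, an adaptor that dampens growth-factor signalling, rose by 0.53 ± 0.08 in whole-cell RNA (SE; adjusted p = 1.59e-05) and by 1.12 ± 0.09 in pulldown RNA (adjusted p = 1.89e-06). Impact fell by 0.38 in whole-cell RNA (adjusted p = 2.6e-07). In the test of the difference between mimics 2 of 18 passed, against 1.07% of all genes, Grb10 with 0.59 ± 0.11 (SE; adjusted p = 0.0142) and Igf2 with 0.63 ± 0.13 (adjusted p = 0.0222).

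The mRNAs of 20 proteins of paraspeckles and nuclear speckles were all tested. Nono, a core paraspeckle protein that binds Neat1, was higher under miR-27a mimic in whole-cell RNA, with 437 ± 1.25 and 576 ± 7.31 CPM (SD, n = 3; log2 change 0.40 ± 0.03, SE, adjusted p = 1.61e-09), as was Rbm14 (0.37 ± 0.07, adjusted p = 0.000625). The paralog Pspc1 was lower, with 145 ± 6.37 and 113 ± 4.19 CPM (SD, n = 3; log2 change -0.36 ± 0.04, SE, adjusted p = 1.09e-06), and so was Hnrnpa1 (-0.37 ± 0.05, adjusted p = 7.74e-06). In all, 2 of 20 were higher and 4 lower in whole-cell RNA, against 13.0% and 11.9% of all genes, and in pulldown RNA 1 was higher (Nono) and 2 lower (Pspc1 and Son), against 6.05% and 7.06%, so these counts are near those over all genes. In pulldown against whole-cell RNA 14 of the 20 were lower and 2 higher under control mimic, against 30.3% and 31.7% of all genes. The median was -0.33, against 0.02 over all genes. Under miR-27a 12 were lower and 3 higher, against 30.9% and 29.3%. Hnrnpk and Srsf11 fell by 0.68 and 0.76 under control mimic. These mRNAs are not themselves nuclear-body RNAs.

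Across the 12 libraries, genes whose log2(CPM + 1) followed each RNA most closely, up to 3 for each, were named from 12472 candidates. These correlations describe 4 groups of libraries and not 12 independent points, and they share the difference between pulldown and whole-cell RNA. Malat1 ran closest with Myef2 (r = 0.997), Map4k5 (0.994) and Matr3 (0.994), Rian with Msl2-2 (0.997), Pum2 (0.997) and Prkrir (0.996), and H19 with Chsy1 (0.997), Ntn4 (0.996) and Apcdd1 (0.995). For Neat1 the closest were Ercc6l (0.987), Rab27b (0.986) and a gene that the table lists as 2-Sep (0.985), a symbol in the form of a date. Meg3 ran with Klhl5 (0.983), Nfe2l3 (0.981) and Dock9 (0.979), Miat with Mtmr12 (0.986), Elf2 (0.983) and Epc1 (0.982), and Mirg with Tmem186 (0.983), Lrrc4 (0.973) and Jag1 (0.971). Kcnq1ot1 ran with Dync2h1 (0.964), Pbrm1 (0.941) and Ranbp2 (0.936), Gas5 with Rev3l (0.964) and the long non-coding RNA Tug1 (0.953), and Snhg11, the low and variable one, with Eml4 (0.878), Casc1 (0.865) and Cnot6 (0.860). Rab27b, the second for Neat1, had group means of 22.3, 38.7, 11.5 and 22.4 CPM in whole-cell control, whole-cell miR-27a, pulldown control and pulldown miR-27a RNA. Like Neat1, with 77.5, 144.5, 31.5 and 73.3 CPM, it was higher under miR-27a in each kind of RNA. Rab27b was picked by its correlation over these same libraries, so this likeness follows from the choice.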

How the data were processed

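RNA was measured in 12 libraries, 3 for each of 4 groups, with groups and replicate numbers taken from the sample titles. The series' design text records a TruSeq Stranded Total RNA kit with ribosomal and globin depletion, paired-end reads, trimming with skewer, alignment with HISAT2 to GRCm38, sorting with SAMtools, counting per gene with featureCounts and normalisation by the authors with edgeR. Their versions, the annotation and the strand setting were not given in the sources used here. A second build, mm8, stands in the submitters' processing notes with no stated role. The authors deposited log2 CPM for 20540 genes.

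Each column had the same lowest value, that of 0 reads. After removing it, 100% of the values were whole multiples of 1 read within a tolerance of 0.01 reads, which gave CPM and reads (15548418 to 24972188 per library). A gene with 0 reads has at most 0.116 to 0.2 CPM (3 reads), by counting error only. Every gene that reached 1 CPM in 3 or more libraries of a fit was tested on log2(CPM + 1) with limma 3.58.1 (R 4.3.3), two-sided, with an empirical Bayes trend and Benjamini-Hochberg adjustment at 0.05 over the genes tested. A change on the log2(CPM + 1) scale understates the change of low genes. The mimics were compared within the 6 libraries of each kind of RNA; contrasts with pulldown against whole-cell RNA came from 1 fit of all 12 libraries, with the spread pooled over the 4 groups. The procedure was tested on simulated data with the same spread setting for every gene and no outlying library. That setting differs from the pulldown miR-27a group, where replicate 2 stood apart, so it cannot speak to calls that depend on that library. The alternatives were pseudocounts of 0.25 and 4, no filter, a filter of 5 CPM, 2 other scalings, voom on recovered reads, a replicate block, other sets of libraries, array weights and leaving out each library.

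Same-numbered pulldown libraries of the 2 mimics deviated together (r = 0.135, 0.275 and 0.107 for numbers 1, 2 and 3). Differently numbered pulldown libraries of the 2 mimics had lower values, from -0.198 to 0.0618. Whole-cell libraries of the 2 mimics did not (0.000857, -0.0285 and -0.0337). Between whole-cell and pulldown groups, differently numbered libraries reached values similar to those of same-numbered pulldown libraries, with 0.222 for whole-cell control 1 and pulldown miR-27a 2. For whole-cell control 2 and pulldown miR-27a 3 it was 0.153. These values therefore cannot settle whether the numbers pair the libraries. No source gives the origin of the numbers.

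The 10 RNAs and the lists were chosen with earlier results of these data known. All 10 are named, with up to 4 called genes of each list by smallest p and the 3 genes of highest Pearson correlation with each RNA, 1 of which is not reported here. Of the symbols, 18013 matched GENCODE M21, including all 10. Python 3.11.15 with pandas 2.3.3 and numpy 2.4.6 made the tables, and matplotlib 3.10.9 drew the plots.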

Additional observations from a re-analysis of the deposited data

How the results depend on the processing

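Over 800 recomputed changes of the 10 RNAs, 726 kept their direction and side of the threshold, 32 fell short of it, 17 newly passed it and 25 changed sign. In whole-cell RNA 5 of the 10 were called, 3 with no filter, 1 with all 12 libraries in 1 fit, and 3 to 5 with 1 library left out. Over all genes 1736 were higher and 1599 lower of 13393, and 1337 and 1320 of 19780 with no filter. The fit of 12 libraries called 760 and 655 of 13875, and leaving out whole-cell miR-27a replicate 1 called 1207 and 1172 of 13308. In pulldown RNA 3 were called, 1 with no filter and 1 to 7 with 1 library left out. Over all genes 822 were higher and 959 lower of 13586, and 574 and 672 of 19772 with no filter. Without pulldown control replicate 3 it was 476 and 493 of 13474, and without pulldown miR-27a replicate 2 it was 1267 and 1424 of 13486. For the difference between mimics 0 were called, 6 with array weights, whose estimation stopped before it converged, and 0 to 2 with 1 library left out. The counts for pulldown against whole-cell RNA stayed within 7 to 9 of 10.

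The sign changes were of log2 changes that had not passed in the fit reported. Away from 0, Rian passed in pulldown RNA without pulldown miR-27a replicate 2 (-0.205, adjusted p = 0.0357). Kcnq1ot1 passed in pulldown against whole-cell RNA under miR-27a without pulldown miR-27a replicate 1 (0.33, adjusted p = 0.00518). With 1 library left out, the log2 change in whole-cell RNA went from -0.068 to 0.046 for Kcnq1ot1 and from -0.076 to 0.16 for Snhg11, that in pulldown RNA from -0.20 to 0.012 for Rian and from -0.064 to 0.32 for Snhg11, and pulldown against whole-cell RNA under miR-27a from -0.018 to 0.33 for Kcnq1ot1. The difference between mimics went from -0.14 to 0.16 for Malat1, -0.083 to 0.073 for Mirg and -0.10 to 0.28 for Snhg11. It was -0.029 for Malat1 with array weights, and for Mirg 0.014 with a pseudocount of 4, 0.0062 with library totals, 0.0019 with median-of-ratios scaling and 0.047 with array weights. The cause was not tested.

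With the replicate block the numbers called were 5, 3, 8, 8 and 0, in the order of the report, and no call of the 10 changed. Over all genes it moved pulldown calls from 822 higher and 959 lower to 1274 and 1469. One fit of 12 libraries gave 760 higher and 655 lower in whole-cell RNA, against 1736 and 1599, and 1403 and 1648 in pulldown RNA. For the difference between mimics, 47 higher and 102 lower genes became 688 and 1047 with array weights, 30 and 43 with no filter, 159 and 314 without pulldown miR-27a replicate 2, 157 and 202 without replicate 1, and as few as 21 and 22 without whole-cell miR-27a replicate 3. In pulldown RNA, leaving out pulldown control replicate 3 gave 476 and 493. Depth limits Mirg and Snhg11 most.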
